A study of Mus musculus with 21 samples.

Results

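Serpina3f, Serpina3g, Serpina3h and Tgm2 are 4 mouse genes, considered here in RNA-seq data. The first 3 are neighbours in the Serpina3 cluster on chromosome 12, and Tgm2 encodes transglutaminase 2. The 4 were selected on measured values, namely the difference between each inhibitor group and its own DMSO group in these libraries, so their differences are given below as a description, with no test. Serpina3f, Serpina3g and Tgm2, 3 of the 4, had a value in each of 4 tables, and are 3 of the 14698 genes that at least 1 table holds. Serpina3h, an annotated transcribed pseudogene, was not analysed here.

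RNA was sequenced from Ba/F3, a pro-B line of the mouse that needs interleukin-3 unless a growth signal such as JAK2-V617F replaces it. All 21 libraries came from Ba/F3 cells expressing JAK2-V617F, the constantly active JAK2 of myeloproliferative neoplasms, in 7 groups of 3. The treated groups were kept for 6 h with the solvent DMSO, with 1 μM ruxolitinib or with 1 μM CHZ868. Ruxo-wash and CHZ868-wash cells had 1 μM inhibitor for 1 h, were washed with PBS and were then kept for 6 h without it. Each washout experiment had DMSO-wash cells of its own. Ruxolitinib is a type I inhibitor, which binds JAK2 in its active form, and CHZ868 is a type II inhibitor, which binds the inactive form. The paper describes ruxolitinib as an inhibitor of JAK1 as well as of JAK2. Nothing in the labels says that the 3 replicates of a group were separate cultures, so SDs, standard errors and p-values measure only the spread between these samples, which may be technical.

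Serpins are proteins that trap proteases. A serpin offers a flexible loop to the protease, and once the loop is cut the serpin changes shape and holds the enzyme in an inactive complex. The mouse genome carries a run of Serpina3 copies where the human genome has SERPINA3 alone, and the loop differs between the copies. Serpina3g, also called Spi2A, works inside the cell, where it inhibits lysosomal cysteine cathepsins and protects lymphocytes and myeloid cells from proteases that leak out of lysosomes. Transglutaminase 2 is a calcium-dependent enzyme that crosslinks proteins between glutamine and lysine residues, binds GTP, and is known as a gene switched on by retinoic acid, NF-kB and TGF-beta. JAK2 phosphorylates STAT transcription factors, and STAT dimers bind the palindrome TTCNNNGAA, the gamma-activated sequence.

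The values are log2 CPM (read counts scaled to library size, on a log2 scale), which the authors normalized separately in each of the 4 tables, so a level can be compared only inside a table. In 3 tables whole reads could be recovered, and the libraries had 7880000 to 10670000 reads on the listed genes. The depth of the 6 libraries of the ruxolitinib washout experiment is unknown, since their values do not correspond to whole reads. A pair of libraries stood apart from their groups. The variance between ruxolitinib-treated replicate 2 and replicates 1 and 3 was 31.3 and 28.5 times what read sampling gives, against 4.39 times between replicates 1 and 3. For DMSO-wash replicate 3 of the CHZ868 experiment it was 23.7 and 38.5 times against replicates 1 and 2, and 5.73 times between those. Both also had more mitochondrial RNA, with mt-Co1 (a subunit of cytochrome c oxidase encoded in mitochondria) at 21600 CPM in ruxolitinib-treated replicate 2, against 10600 and 11200 CPM in replicates 1 and 3. The level of mt-Co1 was 28200 CPM in that DMSO-wash library, against 15900 and 13000 CPM in replicates 1 and 2. The members' differences from DMSO that rest on these libraries are given with and without them. Most other values that rest on them are given once, some with a tally of fits that left out a library. CHZ868-treated libraries had mt-Co1 levels of 26500 to 30300 CPM, against 7660 to 8050 CPM in DMSO-treated libraries, and the part of this in the differences below was not tested.

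Of 18 markers of pro-B and progenitor cells, 6 had values, namely Ptprc, Cd79a, Cd79b, Csf2rb, Csf2rb2 and Il3ra. Csf2rb, the shared beta chain of the interleukin-3 receptor family, was the most abundant of them in every table. Pax5, Ebf1, Rag1, Rag2, Vpreb1, Igll1, Kit and Cd34, which define B-lineage commitment or progenitors, had no value to analyse here. The summed level of the 6 was 3350 to 3410 CPM in DMSO-treated, 2610 to 2870 CPM in CHZ868-treated and 2930 to 3470 CPM in ruxolitinib-treated libraries. In the CHZ868 washout experiment it was 1700 to 1740 CPM after CHZ868 and 1740 to 1920 CPM after DMSO, and in the ruxolitinib washout experiment 329 to 357 CPM and 400 to 420 CPM. Of 21 markers of other cell types, 5 had values in 3 tables and 10 in the table of the ruxolitinib washout. They are mostly erythroid and megakaryocytic, with Itga2b or Hba-a1 as the most abundant, and no T-cell, mast-cell or liver marker had a value. Their sum was 1250 to 1290 CPM in DMSO-treated, 1070 to 1110 CPM in CHZ868-treated and 1200 to 1770 CPM in ruxolitinib-treated libraries. It was 861 to 895 CPM in CHZ868-wash libraries, 585 to 868 CPM in their DMSO-wash libraries, 4350 to 4440 CPM in ruxo-wash libraries and 4860 to 4910 CPM in theirs. These sums hide opposite differences at 6 h. With CHZ868, the erythroid factor genes Klf1 and Gata1 passed limma-trend as higher, with 1.16 and 0.47, and Itga2b and Csf1r as lower, with -0.94 and -1.18. Among the pro-B markers Csf2rb, Csf2rb2 and Il3ra passed as lower, with -0.36, -0.33 and -0.24, and Cd79a as higher, with 0.42, but the calls of Il3ra and Cd79a held in 1 and 2 of 6 fits that left out a library. With ruxolitinib no marker differed by 1 log2 unit. Klf1, Hba-a1 and Gata1 were higher without overlap, by 0.96, 0.80 and 0.58 (0.89, 1.08 and 0.60 without replicate 2). Cd79a, Cd79b and Il3ra were higher without overlap as well, by 0.48, 0.23 and 0.25, while Csf2rb and Csf2rb2 had -0.16 and -0.12 with overlap (-0.24 and -0.21 without replicate 2, then without overlap). Itga2b was lower without overlap at -0.33, and Csf1r had -0.31 with overlap (-0.16 and -0.09 without replicate 2). In CHZ868-wash cells the globin gene Hba-a1 passed limma-trend as higher, with 0.78, and Klf1 as lower, with -0.57, each in 2 of 6 fits that left out a library. After ruxolitinib washout Hba-a1 had -0.21 (adjusted p = 0.0367, limma-trend), a call held in 0 of 6 such fits. Of the 10 markers of other cell types, 3 had an unadjusted p under 0.05 (limma-trend) in that experiment, against 920 of 13085 over all genes. Besides Hba-a1 these were Adgre1 with -1.1 and Pf4 with 0.21, both without overlap, which did not pass. Hbb-bs, another globin gene, had 0.11 without overlap and did not pass. No pro-B marker passed there, but 3 of 6 had an unadjusted p under 0.05 (limma-trend), namely Csf2rb2 with -0.43, Csf2rb with -0.36 and Cd79b with 0.31, larger than the differences of the members in that experiment. The part of these markers in the results was not tested.

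**Figure D1:**
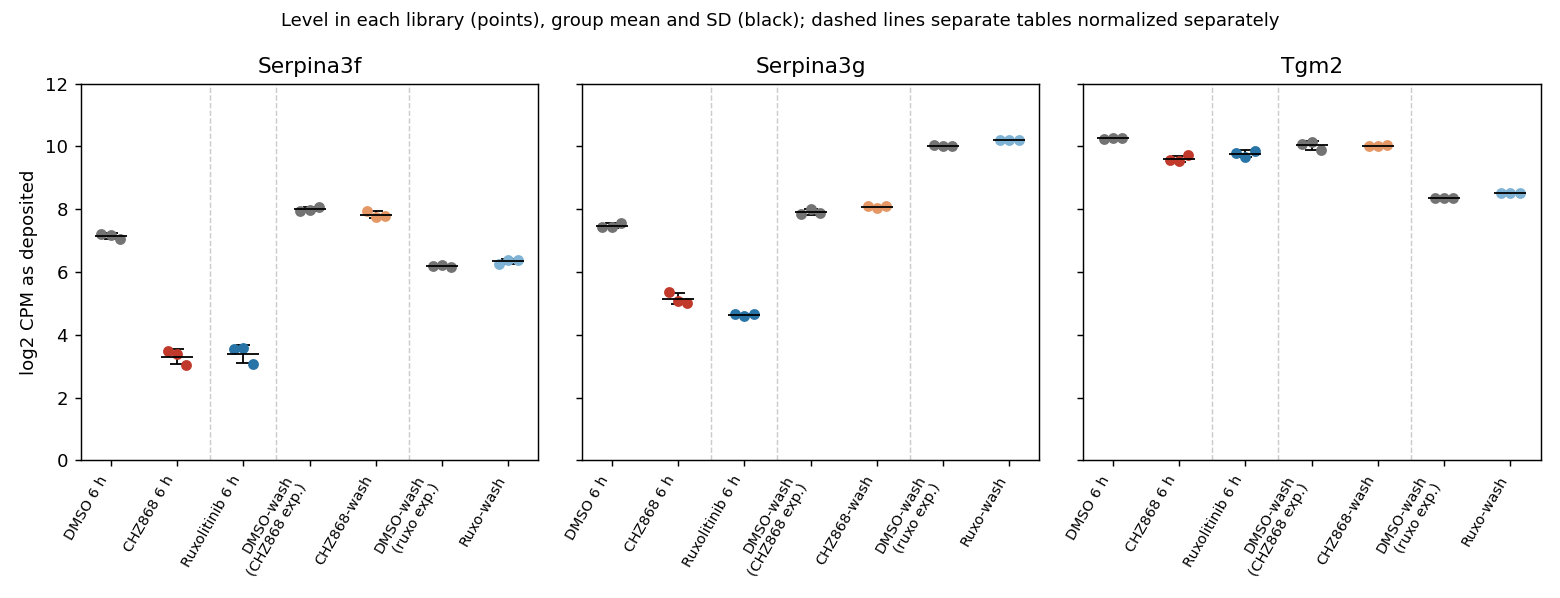
Level of Serpina3f, Serpina3g and Tgm2 in each library (points, log2 CPM as deposited) with the group mean and SD (black), for the 7 groups of 3 libraries; dashed lines separate tables normalized separately. Serpina3f lay between 3.03 and 3.57 with either inhibitor at 6 h, against 7.05 to 7.22 in DMSO-treated libraries.

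Serpina3f stood at 7.22, 7.17 and 7.05 log2 CPM in the 3 DMSO-treated libraries and at 3.50, 3.38 and 3.03 in the 3 CHZ868-treated libraries. These rest on 1298, 1477 and 1256 reads with DMSO and on 112, 77 and 64 reads with CHZ868. The groups were far apart, with every CHZ868-treated library below every DMSO-treated one. The mean was 3.31 ± 0.24 against 7.15 ± 0.08 log2 CPM (SD, n = 3 each), a difference of -3.84 with a standard error of 0.12. On the linear scale Serpina3f had 9.76 ± 1.61 CPM with CHZ868 and 142 ± 8.19 CPM with DMSO (SD, n = 3 each), so 6.97% of the DMSO level was left on the log2 scale. Fewer cells that express a gene and less RNA of it per cell cannot be told apart in such bulk samples. Of 11670 genes in the table, 10 had a more negative difference, which the choice of the gene makes no finding.

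Serpina3g, the intracellular cathepsin inhibitor, stood at 7.42, 7.43 and 7.56 log2 CPM with DMSO and at 5.35, 5.08 and 5.02 with CHZ868. The reads were 1492, 1769 and 1786 with DMSO and 409, 254 and 259 with CHZ868. It too was lower in every CHZ868-treated library, but by less than Serpina3f. The mean was 5.15 ± 0.17 against 7.47 ± 0.08 log2 CPM (SD, n = 3 each), a difference of -2.32 with a standard error of 0.09, which leaves 20% of the DMSO level.

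Tgm2, the crosslinking enzyme, was by far the most abundant of the 3 after 6 h also per length, and it had the smallest difference. Its level was 10.25, 10.27 and 10.28 log2 CPM with DMSO and 9.56, 9.53 and 9.72 with CHZ868. The group means were 9.60 ± 0.10 and 10.27 ± 0.01 log2 CPM (SD, n = 3 each), a difference of -0.67 with a standard error of 0.06, which leaves 63% of the DMSO level. Over all genes, 26.4% passed limma-trend as lower in this comparison. The groups did not overlap for any of the 3 members, while 30.1% of all genes were lower without overlap, and nothing is read from this, since the same contrast chose the members.

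With ruxolitinib, whose libraries are in a table of their own, the median of 11624 genes that both tables hold was subtracted from each library, and no test was run. Serpina3f had 3.56, 3.57 and 3.06 log2 CPM as deposited, from 113, 115 and 77 reads. Its centred difference from DMSO-treated cells was -3.78, with a standard error from the group SDs of 0.18, and it was -3.87 without replicate 2. Ruxolitinib thus left 7.3% of the DMSO level, with no overlap.

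Serpina3g had 4.66, 4.59 and 4.66 log2 CPM with ruxolitinib, from 245, 236 and 238 reads, and these 3 libraries were the closest to each other of any group at 6 h for this gene. The centred difference was -2.86 with a standard error of 0.05, or -2.84 without replicate 2, and 13.8% of the DMSO level was left. Tgm2 had 9.79, 9.66 and 9.86 log2 CPM, the lowest in replicate 2. Its centred difference was -0.52 with a standard error of 0.05, or -0.47 without replicate 2, and 69.7% of the DMSO level was left. Serpina3f and Serpina3g, 2 of the 3 members, were lower by at least 1 log2 unit without overlap, as were 2.83% of all genes, while 0.292% were higher by as much. Groups of all 3 members did not overlap, while 20.1% of all genes were lower without overlap. With quantile normalization in place of centring, 77.7% of the genes past that threshold were lower, against 90.6% with centring.

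At the same dose and time, the type I and the type II inhibitor left Serpina3f at close levels. CHZ868-treated minus ruxolitinib-treated was -0.04 after centring, with a standard error of 0.23, and the groups overlapped. Serpina3g was 0.56 log2 units higher with CHZ868 than with ruxolitinib, with a standard error of 0.10, and every CHZ868-treated library was above every ruxolitinib-treated one. That difference ranged from 0.46 to 0.62 with single libraries left out. Tgm2 differed by -0.12 with a standard error of 0.08, and its groups overlapped, but the value depended on scaling, at -0.17 without centring and -0.26 with quantile normalization. These 3 differences were not tested, since the inhibitors are in separate tables, and both inhibitors were compared with the same DMSO-treated libraries.

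In the CHZ868 washout experiment the members were close to their DMSO-wash levels. Serpina3f had 7.95, 7.76 and 7.78 log2 CPM in CHZ868-wash libraries and 7.94, 7.99 and 8.07 in DMSO-wash libraries. The difference was -0.17 with a standard error of 0.09, and the groups overlapped. Serpina3g had 8.11, 8.05 and 8.10 log2 CPM after CHZ868 and 7.86, 8.01 and 7.87 after DMSO. It was higher in every CHZ868-wash library, by 0.17 with a standard error of 0.08. Tgm2 had 10.00, 10.01 and 10.05 log2 CPM after CHZ868 and 10.09, 10.13 and 9.88 after DMSO, where the low value belongs to replicate 3, the library that stood apart. Its difference was -0.01 with a standard error of 0.09, and -0.09 without that library. Serpina3f differed by -0.13 and Serpina3g by 0.15 without it.

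Over all genes in that experiment, 1.96% passed limma-trend as higher and 2.07% as lower (457 genes, with 2767 at an unadjusted p under 0.05). Serpina3g did not overlap between groups, while 14.9% of all genes were higher without overlap. The number of genes that passed depended on single libraries. Leaving out replicate 3 or 2 of the DMSO-wash cells gave 1426 or 1298 genes. Leaving out CHZ868-wash replicate 2 gave 1 gene, and leaving out CHZ868-wash replicate 1 or 3 or DMSO-wash replicate 1 gave 0. In these last 4 fits limma-trend gave 1881 to 2137 genes at an unadjusted p under 0.05.

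After ruxolitinib washout all 3 members were slightly above their DMSO-wash levels, by almost the same amount. Serpina3f had 6.26, 6.39 and 6.37 log2 CPM in ruxo-wash libraries and 6.18, 6.24 and 6.17 in DMSO-wash libraries, a difference of 0.14 with a standard error of 0.05. Serpina3g had 10.21, 10.20 and 10.20 log2 CPM against 10.06, 10.00 and 10.03, a difference of 0.17 with a standard error of 0.02. Tgm2 had 8.51, 8.53 and 8.51 log2 CPM against 8.36, 8.37 and 8.35, a difference of 0.16 with a standard error of 0.02. For each of the 3, every ruxo-wash library was above every DMSO-wash library, as for 6.3% of all genes. On the linear scale the ruxo-wash levels were 110% of the DMSO-wash level for Serpina3f, 113% for Serpina3g and 112% for Tgm2. Over all genes 3 of 13085 passed limma-trend (0.0229%) and 920 had an unadjusted p under 0.05.

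The inhibitors were washed out in separate experiments with separate tables, so the inhibitor and the experiment cannot be told apart in what follows. The ruxolitinib washout difference minus the CHZ868 washout difference was 0.31 for Serpina3f, with a standard error of 0.10, from a fit over all 12 washout libraries. It was 0.00 for Serpina3g, with a standard error of 0.08, and 0.17 for Tgm2, with a standard error of 0.09. No p is given, because the same contrasts chose the members. For Serpina3f all 3 ruxo-wash libraries lay above, and all 3 CHZ868-wash libraries below, the mean of their DMSO-wash group. Without the DMSO-wash library that stood apart this also held for Tgm2, as its other DMSO-wash values, 10.09 and 10.13, were above all 3 CHZ868-wash values. For Tgm2 the value was then 0.25. Over all genes 1.9% of 10078 passed the same fit.

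Set in order, the deposited level of Serpina3f was highest in the CHZ868 washout experiment (7.94 to 8.07 over the DMSO-wash libraries and 7.83 ± 0.10 with CHZ868-wash), then in DMSO-treated cells, then in the ruxolitinib washout experiment (6.34 ± 0.07 with ruxo-wash and 6.20 ± 0.04 with DMSO-wash), and lowest in ruxolitinib-treated and CHZ868-treated cells, a pair that did not differ beyond their spread (SD, n = 3 each, log2 CPM). Serpina3g had another order, with ruxo-wash (10.20 ± 0.01) and its DMSO-wash (10.03 ± 0.03) first, then CHZ868-wash (8.09 ± 0.03) and its DMSO-wash (7.91 ± 0.08), then DMSO-treated, CHZ868-treated and ruxolitinib-treated cells. For Tgm2 DMSO-treated cells were first, then DMSO-wash (10.03 ± 0.14) and CHZ868-wash (10.02 ± 0.03), which did not differ beyond their spread, then ruxolitinib-treated and CHZ868-treated cells, and the ruxolitinib washout experiment last, at 8.52 ± 0.01 with ruxo-wash and 8.36 ± 0.01 with DMSO-wash. These orders mix tables that were normalized separately, so across tables they list deposited values and do not compare levels. They were not tested.

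**Figure D2:**
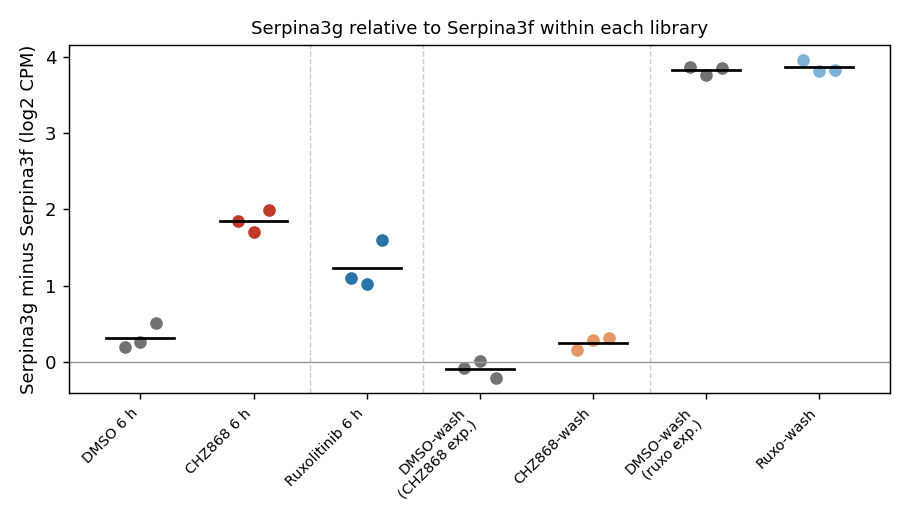
Serpina3g minus Serpina3f (log2 CPM, vertical axis) in each library (points), with the group mean as a line; dashed lines separate the tables. The 6 libraries of the ruxolitinib washout experiment lie between 3.76 and 3.95, and the 6 of the CHZ868 washout experiment between -0.20 and 0.32.

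Serpina3g relative to Serpina3f, a measure inside each library that a factor per library cannot move, differed with the treatment at 6 h. As a difference of log2 CPM it was 0.20, 0.26 and 0.51 in DMSO-treated libraries, 1.85, 1.70 and 1.99 in CHZ868-treated libraries and 1.10, 1.02 and 1.60 in ruxolitinib-treated libraries. Every inhibitor library was above every DMSO-treated library. Per length of the longest annotated transcript, the means were 0.64 ± 0.16 with DMSO, 2.17 ± 0.14 with CHZ868 and 1.56 ± 0.31 with ruxolitinib (SD, n = 3 each). So Serpina3g was the more abundant of the pair per length in each of these groups.

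The same measure set the ruxolitinib washout experiment apart from the others by more than any treatment did. Per length, Serpina3g minus Serpina3f had a mean of 0.57 ± 0.09 in CHZ868-wash and 0.23 ± 0.11 in its DMSO-wash cells, but 4.18 ± 0.08 in ruxo-wash and 4.15 ± 0.06 in its DMSO-wash cells (SD, n = 3 each). In CPM, DMSO-wash cells had 73.5 ± 1.87 CPM of Serpina3f and 1050 ± 20.4 CPM of Serpina3g in the ruxolitinib experiment, and 256 ± 11.9 CPM and 241 ± 14.3 CPM in the CHZ868 experiment (SD, n = 3 each). The table of the ruxolitinib washout is also the one whose values are not whole reads, and the part of the counting in this gap was not tested. Tgm2 per length was 6.51 ± 0.01 in DMSO-wash cells of the ruxolitinib experiment, below Serpina3g at 9.18 ± 0.03, while in DMSO-treated cells Tgm2 was above, at 8.42 ± 0.01 against 6.62 ± 0.08 log2 CPM per kb (SD, n = 3 each).

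**Figure D3:**
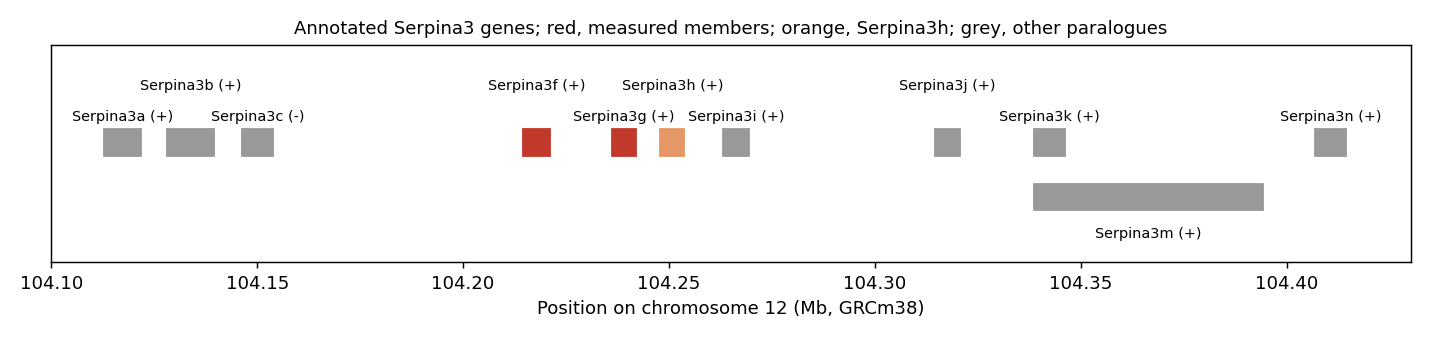
Map of the 11 annotated Serpina3 genes on mouse chromosome 12 (position in Mb, GRCm38), with the strand of each in brackets; Serpina3f and Serpina3g in red, Serpina3h in orange, other paralogues in grey. Serpina3f, Serpina3g and Serpina3h follow each other on the plus strand.

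In the GENCODE annotation of GRCm38, Serpina3f (ENSMUSG00000066363.12) spans chromosome 12 from 104214544 to 104221129, Serpina3g (ENSMUSG00000041481.16) from 104236245 to 104241939 and Serpina3h (ENSMUSG00000041449.16) from 104247905 to 104253669, each on the plus strand. The gap is 15115 bases from Serpina3f to Serpina3g and 5965 bases from Serpina3g to Serpina3h. They are 3 of 11 annotated Serpina3 genes there, 10 of which are protein-coding. Tgm2 (ENSMUSG00000037820.15) is on the minus strand of chromosome 2, from 158116402 to 158146436, with 13 exons in its longest transcript. Of 8 other Serpina3 paralogues, Serpina3i alone had a value, in the ruxolitinib washout table, where it was near the floor with 0.50 ± 0.39 log2 CPM in DMSO-wash and -0.35 ± 1.63 in ruxo-wash cells (SD, n = 3 each; adjusted p = 0.896, limma-trend). None of 14 other clade A serpins had a value to analyse here.

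The longest transcripts of Serpina3f (2248 bases) and Serpina3g (1803 bases) were 89.6% identical over 1787 aligned bases, and Serpina3g and Serpina3h were 90.4% identical over 981. Of the stretches of 31 bases in the transcripts of Serpina3g, 28.4% also occur in another gene's transcripts, 16.2% in those of Serpina3f and 15.2% in those of Serpina3h. For Serpina3f 27.3% occur in another gene. Reads from such stretches could have been counted for either gene, so the levels of Serpina3f and Serpina3g are uncertain to that extent, in particular relative to each other. For Tgm2 the share was 0%. On the plus strand, however, Gm20412, a processed transcript, shares 633 exon bases with Tgm2, and Rprd1b shares 370. The kit kept strand according to the labels, but whether the counting used it is not given in the sources used here. Gm20412 had a difference of -0.78 with CHZ868 (standard error 0.09, adjusted p = 3.84e-06, limma-trend) and of -0.52 with ruxolitinib after centring, and Rprd1b had -0.26 (standard error 0.06, adjusted p = 0.00117, limma-trend) and -0.22. Within the shared bases, reads of Tgm2 and Gm20412 cannot be told apart without strand.

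The stretch of 60 coding bases where Serpina3f and Serpina3g differ most shows how reads can tell these copies apart. It lies in exon 6 of transcript Serpina3f-202 (chr12:104220400-104220459, coding bases 1224 to 1283 of 1335) and in exon 5 of Serpina3g-201 (chr12:104241224-104241283, coding bases 645 to 704 of 744), both on the plus strand of GRCm38. The 17 differing bases are in capitals.
Serpina3f: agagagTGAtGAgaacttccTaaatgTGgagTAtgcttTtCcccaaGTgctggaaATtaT
Serpina3g: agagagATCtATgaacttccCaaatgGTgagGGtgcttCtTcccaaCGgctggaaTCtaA
Over the whole aligned coding sequence the pair were 88.9% identical, over 741 bases.

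Both genes were lower with either inhibitor of JAK2, so the 250 bases before their annotated starts are shown, taken from RefSeq on GRCm38.p6 and searched on both strands for STAT palindromes and for a form of the interferon-stimulated response element. The palindromes were TTCNNGAA, TTCNNNGAA and the same with 4 bases between TTC and GAA, and the element was GAAA, any 2 bases and GAAA. Serpina3f and Serpina3g, 2 of the 4 genes, had entries in the promoter set used here. For Serpina3f the first of its 2 annotated starts is shown. The windows are chr12:104214294-104214543 for Serpina3f and chr12:104235897-104236146 for Serpina3g, plus strand, with matches in capitals.
Serpina3f: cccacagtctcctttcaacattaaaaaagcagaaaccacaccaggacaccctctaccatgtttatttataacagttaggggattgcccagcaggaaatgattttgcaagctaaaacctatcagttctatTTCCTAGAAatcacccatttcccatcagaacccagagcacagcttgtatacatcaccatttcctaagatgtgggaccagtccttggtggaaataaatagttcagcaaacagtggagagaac
Serpina3g: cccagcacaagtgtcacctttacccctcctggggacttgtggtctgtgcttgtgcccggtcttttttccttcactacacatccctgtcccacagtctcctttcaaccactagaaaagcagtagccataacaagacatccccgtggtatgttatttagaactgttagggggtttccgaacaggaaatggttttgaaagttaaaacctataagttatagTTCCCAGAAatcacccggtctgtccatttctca
Each window held 1 match to TTCNNNGAA, from 121 to 113 bases before the start in Serpina3f and from 33 to 25 bases before it in Serpina3g, and no match to the other motifs. The windows were 82.6% identical over 144 aligned bases. Across all 32851 promoter windows of this length, 7.02% held TTCNNNGAA, 7.17% TTCNNGAA, 5.85% the palindrome with 4 bases between and 2.98% the response element. A match describes letters in a window and is not a measured binding site. The paralogue Serpina3i also had a match to TTCNNNGAA, and to the palindrome with 4 bases between, in its window, while the windows of Serpina3a, Serpina3b, Serpina3c, Serpina3j and Serpina3n held no match to any of the 4 motifs.

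**Figure D4:**
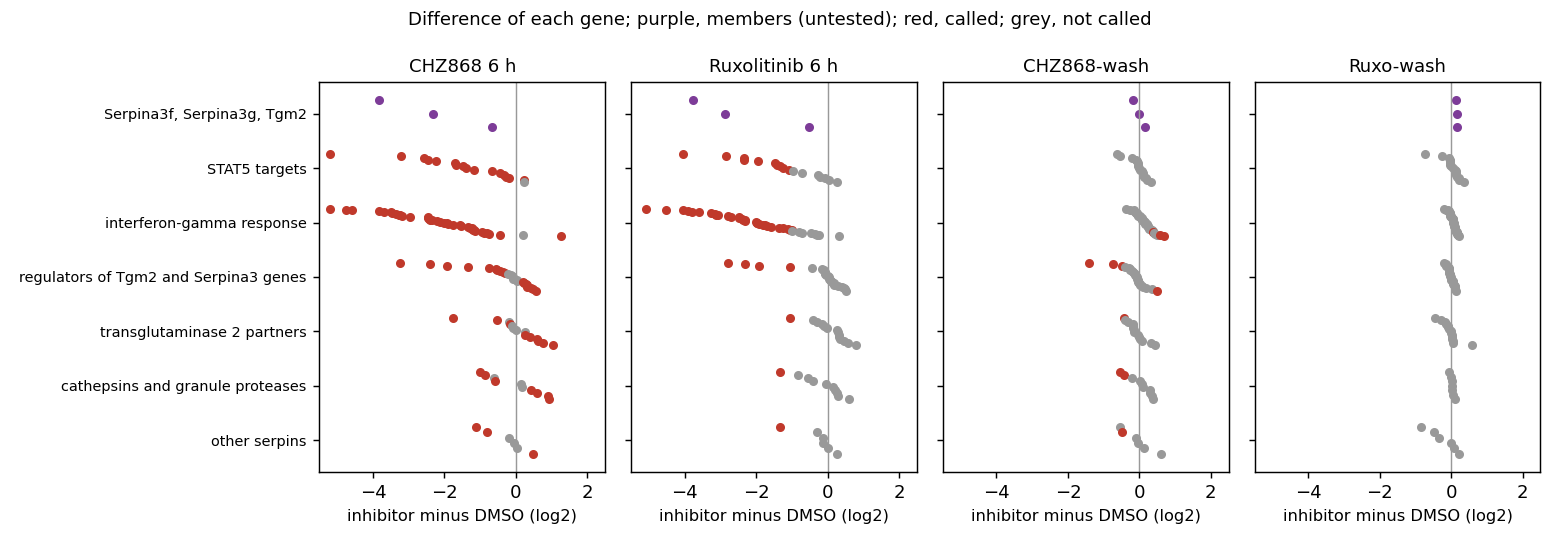
Difference of each gene from its DMSO group (log2, horizontal axis) in the 4 comparisons, for the members (purple, untested) and for genes of 6 lists (red, called; grey, not called). Red stands for an adjusted p under 0.05 or, for ruxolitinib at 6 h, for at least 1 log2 unit without overlap. Of 39 genes of the interferon-gamma list, 37 (CHZ868) and 31 (ruxolitinib) were called lower at 6 h, against 26.4% and 2.83% of all genes.

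Genes of the pathways around the members were counted from lists. These lists were chosen with earlier results of these data known, so their counts are a description and no independent support. Known STAT5 targets were largely lower with CHZ868, as 15 of 17 measured genes passed limma-trend as lower and 1 as higher. Of all genes tested there, 26.4% passed in the lower direction and 26.8% in the higher one. The median difference of the 17 was -1.39, against -0.01 over all genes. Socs1, a feedback inhibitor of JAK kinases, had -5.20 (standard error 0.37, adjusted p = 2.36e-08), the survival kinase genes Pim1 and Pim2 had -3.20 and -2.56, and the cytokine gene Osm had -2.46. Mcl1, which protects cells from apoptosis, was the gene that passed as higher, with 0.22. With ruxolitinib 10 of the 17 were lower by at least 1 log2 unit without overlap (11 without replicate 2), as were 2.83% of all genes. The median of the 17 was then -1.26, against 0.04 over all genes. In either washout experiment no STAT5 target passed limma-trend, with 4 of the 17 after CHZ868 and 6 after ruxolitinib at an unadjusted p under 0.05. Over all genes 2767 of 11355 after CHZ868 and 920 of 13085 after ruxolitinib had such a p. With single libraries left out, 0 to 2 of the STAT5 targets passed as lower after CHZ868 washout.

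Genes of the interferon-gamma response were also largely lower, and Socs1 belongs to this list too. Of 39 measured, 37 passed limma-trend as lower with CHZ868 and 1 as higher, where 26.4% and 26.8% of all genes passed. The median of the 39 was -2.01. The GTPase genes Tgtp1 and Iigp1, which act against intracellular pathogens, had -4.74 (standard error 0.12, adjusted p = 5.1e-13) and -4.59 (standard error 0.06, adjusted p = 3.28e-16), and Tgtp2 had -3.83, next to the -3.84 of Serpina3f. B2m, the light chain of MHC class I, was the exception, with 1.25. With ruxolitinib 31 of the 39 were lower by at least 1 log2 unit without overlap (32 without replicate 2), as were 2.83% of all genes. The median of the 39 was then -1.98. Isg15, Ifi47 and Iigp1, 3 of 38 measured, passed as higher in CHZ868-wash cells, with 0.68, 0.59 and 0.38 (adjusted p = 0.0331, 0.0316 and 0.0412, limma-trend). Over all genes 1.96% passed as higher there. Each of these 3 calls held in 2 of 6 fits that left out a library. The number of list genes that passed as higher ranged from 0 to 9 over those fits. Of the 38, 16 had an unadjusted p under 0.05 (limma-trend), against 2767 of 11355 over all genes. After ruxolitinib washout none of 37 passed limma-trend, and 8 had an unadjusted p under 0.05, against 920 of 13085 over all genes.

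Of genes that encode known regulators of Tgm2 and of Serpina3 genes, 10 of 26 passed as lower and 9 as higher with CHZ868, where 26.4% and 26.8% of all genes passed, with a median of -0.10. Among the lower ones were Irf1 at -2.40 (standard error 0.08, adjusted p = 3.9e-12, limma-trend), Irf9 at -1.92 and Stat2 at -1.35. These 3 were also past the threshold with ruxolitinib, at -2.30, -1.93 and -1.04. They belong to the interferon-gamma list as well. The receptor genes for retinoic acid Rara and Rarg had 0.03 and -0.12 with CHZ868 and did not pass, while their partner gene Rxrb passed as lower with -0.75. The NF-kB subunit genes Nfkb1 and Nfkb2 passed as lower with -0.52 and -0.43, and Rela as higher with 0.42. Jak2 itself had 0.19 with CHZ868 and passed (in 5 of 6 fits that left out a library), and 0.06 with ruxolitinib.

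In CHZ868-wash cells 4 of these regulators passed limma-trend, where 1.96% of all genes passed as higher and 2.07% as lower. Cebpb, a transcription factor of myeloid cells, had -1.42 (standard error 0.16, adjusted p = 0.0117) and passed in 3 of 6 fits that left out a library. The growth factor gene Tgfb1 had -0.73 and Rela had -0.49, while the receptor gene Tgfbr1 had 0.50, and each of the 3 passed in 2 of 6 such fits. None of 26 passed after ruxolitinib washout, with 1 at an unadjusted p under 0.05 (limma-trend), against 920 of 13085 over all genes.

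Targets and relatives of the serpins had differences in both directions. Of 10 measured cathepsins and granule proteases, 3 passed as lower and 4 as higher with CHZ868, with a median of 0.15, where 26.4% and 26.8% of all genes passed. Ctsc, the cathepsin that activates granule serine proteases, had -0.99 (standard error 0.07, adjusted p = 2.8e-08, limma-trend) and Prtn3, proteinase 3 of granules, had -0.85. Gzmb, granzyme B, had 0.94 and the lysosomal carboxypeptidase gene Ctsa had 0.89. Ctsc was the gene past the threshold with ruxolitinib, at -1.32. In CHZ868-wash cells Ctsz had -0.53 and Ctsa -0.43, and both passed, each in 2 of 6 fits that left out a library. Among 7 measured after ruxolitinib washout none passed limma-trend, with 1 at an unadjusted p under 0.05, against 920 of 13085 over all genes.

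Of 6 other serpins measured, Serpinc1 (antithrombin) passed as lower with CHZ868 at -1.11 and Serpinb9 (an inhibitor of granzyme B) at -0.81, while Serpinf1 passed as higher at 0.48. Over all genes 26.4% passed as lower and 26.8% as higher, so nothing is read from these counts. The call of Serpinb9 held in 4 of 6 fits that left out a library. Serpinb9 was also past the threshold with ruxolitinib, at -1.34. Serpinf1 had -0.49 in CHZ868-wash cells (adjusted p = 0.0372, limma-trend), a call held in 2 of 6 fits that left out a library. None of the 6 measured after ruxolitinib washout passed, and none had an unadjusted p under 0.05 (limma-trend). Cystatins are the other family of cathepsin inhibitors. Of 3 measured, Cstb and Cst7 passed as higher with CHZ868, at 0.72 and 0.54, where 26.8% of all genes passed. The call of Cst7 held in 3 of 6 fits that left out a library. No cystatin passed limma-trend in a washout experiment or at an unadjusted p under 0.05 there.

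Around Tgm2, other transglutaminases had low levels. Tgm1, which crosslinks the skin barrier, had 2.55 ± 0.21 log2 CPM with CHZ868 and 3.69 ± 0.06 with DMSO (SD, n = 3 each), a difference of -1.15 (standard error 0.21, adjusted p = 0.000266, limma-trend), and -1.33 with ruxolitinib after centring. Tgm4, the prostate enzyme, had -0.53 with CHZ868 and did not pass, and Epb42, the inactive relative in red cell membranes, had 0.11. F13a1, the clotting factor, had a value in the ruxolitinib washout table alone, with a difference of -0.28. No transglutaminase of the list passed limma-trend in either washout experiment, or had an unadjusted p under 0.05. Of 14 measured partners of transglutaminase 2, 3 passed as lower and 6 as higher with CHZ868, where 26.4% and 26.8% of all genes passed. The receptor gene Lrp1 had -1.75 and was also past the threshold with ruxolitinib, at -1.06, which held in 4 of 6 fits that left out a library. The disulfide isomerase gene Pdia3 had 0.75 and the adhesion receptor gene Adgrg1 had 0.63. Pdia3 passed as lower in CHZ868-wash cells, at -0.42 (adjusted p = 0.0454, limma-trend), in 2 of 6 fits that left out a library. None of 15 partners passed after ruxolitinib washout, with 1 at an unadjusted p under 0.05 (limma-trend), against 920 of 13085 over all genes.

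Genes next to the members on the chromosome were counted in the same way. Of the 10 nearest measured protein-coding genes around the Serpina3 members, 434 to 1440 kb away, 2 passed as lower and 1 as higher with CHZ868. Ifi27, an interferon-inducible gene, had -1.45 (standard error 0.10, adjusted p = 1.49e-08, limma-trend), and -1.58 with ruxolitinib. Syne3, a nuclear envelope gene, had -0.84 with CHZ868 and 0.09 with ruxolitinib, and Gskip had 0.56 with CHZ868. The other 7, Dicer1 among them at -0.10, did not pass. Over all genes 26.4% passed as lower and 26.8% as higher. Around Tgm2, among the 10 nearest that do not overlap it (Rprd1b, given above, does), 4 passed as lower and 2 as higher. The nearest of them, D630003M21Rik, 36.1 kb away, had -1.69 (standard error 0.09, adjusted p = 8.94e-10, limma-trend), and -0.97 with ruxolitinib. Nnat, Ppp1r16b and Manbal had -2.24, -1.47 and -0.97 with CHZ868, and Ppp1r16b had -1.68 with ruxolitinib. In the washout experiments 0 of the 20 neighbours passed limma-trend.

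Over the 12 inhibitor libraries, each set against its own DMSO mean, the genes with the pattern most like each member were found among 9973 genes that all 4 tables hold. For Serpina3f they were Gbp4, Tgtp2 and Rtp4, with root mean square differences of 0.32, 0.36 and 0.43 log2 units. Gbp4 had -3.69 with CHZ868 and -3.91 with ruxolitinib, and 0.26 and 0.17 after their washouts. For Serpina3g they were Irgm1 (0.23), Dusp6 (0.24) and Zbp1 (0.26). Irgm1 had -2.45 with CHZ868 and -2.49 with ruxolitinib. For Tgm2 they were Irf2bpl (0.11), Atp10a (0.12) and Pdcd11 (0.12), with Irf2bpl at -0.60 with CHZ868, -0.42 with ruxolitinib and 0.20 after ruxolitinib washout. Serpina3f and Serpina3g differed from each other by 0.92 on this measure, a description only.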

How the data were processed

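RNA-seq values of 21 libraries of Ba/F3 cells with JAK2-V617F, 7 groups of 3, were used. The deposited values are log2 CPM in 4 tables, which the authors filtered for low expression, normalized by TMM and gave a small constant. The study's methods name kallisto, GRCm38 transcripts and edgeR, while the submitters' processing notes list STAR 2.7.3a, edgeR 4.0.16 and GRCm39, and this difference is not resolved in the sources used here. All columns were matched to samples by their labels.

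Whole reads were recovered from 3 tables by removing the constant (0.222 or 0.213 CPM), and 100% of the low values were whole within 0.1 read. Groups within a table were compared by limma-trend (limma 3.58.1, R 4.3.3) with Benjamini-Hochberg adjustment over all its genes and a threshold of 0.05, in place of the study's voom weights, so that all tables were handled alike, as reads could not be recovered for the ruxolitinib washout. Ruxolitinib-treated and DMSO-treated libraries, in separate tables, were centred on the median of shared genes, without a test. Fits were tested on simulated data. The members and lists were chosen with earlier results of these data known. Named list genes are from the 4 per list with the largest difference among called genes with CHZ868, plus those called after a washout; others were named after their values were seen, to complete a count or a family. Positions and transcripts came from GENCODE M21, promoters from RefSeq (GRCm38.p6), and alignments from Biopython 1.88 (match 2, mismatch -3).

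Alternatives were other scalings, log2(CPM + 1) and log2(CPM + 5), keeping genes whose mean log2 CPM reached 1 or 3, no mean-variance trend, a minimum difference of 0.58, a replicate block, and leaving out each library.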

Additional observations from a re-analysis of the deposited data

Results flagged for a closer look

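The effect of ruxolitinib washout differed from that of CHZ868 washout, by limma-trend on the difference of the effects over the 10078 genes both tables hold, for 7 of 116 list genes measured in both, where 1.9% of all genes passed. The difference (ruxolitinib minus CHZ868, log2 units) was 1.54 for Cebpb, and this call held in all 12 fits that left out a library. It was 0.72 for Tgfb1, 0.59 for Rela and -0.52 for Tgfbr1, which encode regulators of Tgm2, and these calls held in 4, 2 and 2 of the 12 fits. For the cathepsin gene Ctsz it was 0.57 (2 of 12 fits), for the interferon-inducible Isg15 -0.71 (3 of 12) and for the globin gene Hba-a1 -0.99 (2 of 12). Each inhibitor had a washout experiment of its own, and for these genes its effect cannot be told apart from that of the experiment. For Serpina3f every ruxo-wash library lay above, and every CHZ868-wash library below, the mean of its DMSO-wash group, a difference of 0.31 that was not tested.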

How the results depend on the processing

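The differences of Serpina3f, Serpina3g and Tgm2 from DMSO at 6 h kept their sign under every alternative tried. With quantile normalization Tgm2 had -0.87 with CHZ868 and -0.59 with ruxolitinib, CHZ868 minus ruxolitinib -0.26, and Serpina3g -2.93 with ruxolitinib and -0.07 for the difference of washout effects. With log2(CPM + 5), which understates low genes by construction, Serpina3f had -3.32 and -3.28 and Serpina3g -2.18 and -2.64 with CHZ868 and ruxolitinib. The cause of the other shifts was not tested. With single libraries left out, the differences with CHZ868 ranged from -3.94 to -3.71 (Serpina3f), -2.42 to -2.25 (Serpina3g) and -0.72 to -0.63 (Tgm2), and with ruxolitinib from -3.87 to -3.60, -2.88 to -2.81 and -0.56 to -0.47. After CHZ868 washout they ranged from -0.23 to -0.13, 0.15 to 0.22 and -0.09 to 0.04, so Tgm2 changed sign, and after ruxolitinib washout from 0.12 to 0.18, 0.16 to 0.19 and 0.15 to 0.16. The difference of washout effects ranged from 0.27 to 0.37, -0.05 to 0.02 and 0.12 to 0.25, and CHZ868 minus ruxolitinib from -0.22 to 0.09, 0.46 to 0.62 and -0.18 to -0.08, so the sign changed for Serpina3f here and for Serpina3g in the difference of washout effects.

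Counts of genes past the threshold moved more. With a minimum difference of 0.58 they were 2941 with CHZ868 (6214 without it), 174 after CHZ868 washout and 0 after ruxolitinib washout. With log2(CPM + 5), 176 genes differed with ruxolitinib, against 363. Without the mean-variance trend limma gave 0 genes after CHZ868 washout (2562 at an unadjusted p under 0.05), 9 after ruxolitinib washout and 14 for the difference of washout effects, against 191. With single libraries left out the counts ranged from 5081 to 6426 with CHZ868, 350 to 427 with ruxolitinib, 0 to 1426 after CHZ868 washout, 0 to 1 after ruxolitinib washout (824 to 880 at an unadjusted p under 0.05, limma-trend) and 5 to 628 for the difference of effects. Of that last count, the lowest was without CHZ868-wash replicate 3 and the highest without DMSO-wash replicate 2 of that experiment.

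The replicate numbers did not pair the samples, since deviations of same-numbered libraries had correlations from -0.05 to 0.05 in the 9 pairs. With a replicate block limma-trend gave 6192 genes with CHZ868, 539 after CHZ868 washout and 0 after ruxolitinib washout (843 at an unadjusted p under 0.05). The depth of the ruxolitinib washout libraries is unknown, and with CHZ868 the level of Serpina3f rests on 64 to 112 reads.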
